A study of Anopheles dirus with 6 samples.

Results

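The most abundant messenger RNAs of blood-fed *An. dirus* females are described here, as the 100 gene IDs with the highest mean level in the 3 AdCtrl24h libraries among the 13077 IDs that occur in exactly 1 row of the table. The members were chosen by their AdCtrl24h values, so their levels in those libraries are a description, and a difference between the groups is partly shaped by the choice. RNA came from whole females of the Hainan strain, 24 h after a blood meal, in pools of 30 per library. AdCtrl24h females (n = 3 pools) grew from untreated larvae, and AdBs24h females (n = 3 pools) survived a sublethal larval dose of the 2362 strain of Bs (*Bacillus sphaericus*, now *Lysinibacillus sphaericus*), whose spores carry a toxin that attacks the larval gut. The labels place the dose at the early instar 4, whereas the methods of the study name an earlier instar. A pool averages over its females, so differences between single mosquitoes cannot be seen, and in whole bodies fewer cells of a type and less RNA per cell cannot be told apart.

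A female *Anopheles* needs blood to mature eggs. After the meal the midgut secretes proteases that digest it, the fat body makes yolk proteins such as vitellogenin for the oocytes, and the ovary takes them up. Messenger RNAs of ribosomes, mitochondria, muscle and the tissue-specific secreted products are generally among the most abundant ones of a whole insect. The table carries ADIR identifiers only and does not pair them with gene names, so none of these roles is given to an ID, neither vitellogenin nor a tissue marker could be looked up, and the labelled tissue could not be checked against its markers.

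Levels are in TPM, a length-corrected abundance in which the transcripts of a whole library add up to 1000000. TPM holds no read counts per ID, so the counting error behind each value is unknown. The values listed in the table summed to 511952 to 524312 TPM in AdCtrl24h and 497690 to 520670 TPM in AdBs24h, lowest in AdBs24h replicate 2. What makes up the rest of 1000000 was not analysed here, so the 100 IDs are the most abundant of the listed ones only. All 100 were above 0 in all 6 libraries and passed the filter of a mean of at least 1 TPM.

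The 100 members are 0.765% of the single-row IDs and held more of the listed total than all other IDs together. Their share was 55.1%, 54.1% and 54.1% in AdCtrl24h replicates 1, 2 and 3 and 54.8%, 54.0% and 55.4% in AdBs24h replicates 1, 2 and 3. The mean was 54.4% ± 0.626 in AdCtrl24h and 54.8% ± 0.710 in AdBs24h (SD, n = 3 each), and the ranges overlapped. Of the full 1000000, the same members held 28.3% ± 0.621 in AdCtrl24h and 28.1% ± 1.02 in AdBs24h (SD, n = 3 each). The first 10 members alone held 15.8% ± 0.393 of the listed total in AdCtrl24h and 15.7% ± 0.274 in AdBs24h (SD, n = 3 each). The first 50 held 39.9% ± 0.524 and 40.0% ± 0.393 (SD, n = 3 each).

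A measure that treats the groups alike is the share held by the 100 IDs most abundant in each library itself. It was 54.5% ± 0.615 in AdCtrl24h and 54.9% ± 0.707 in AdBs24h (SD, n = 3 each), a difference of 0.441 percentage points that did not exceed the spread between pools (exact two-sided permutation test, p = 0.5, where 3 pools against 3 can reach 0.1 at the lowest). The difference was 0.0998 percentage points without AdBs24h replicate 3 and 0.805 without AdBs24h replicate 2, and without AdCtrl24h replicates 1, 2 or 3 it was 0.795, 0.279 or 0.248. The same comparison gave p = 1 for the first 10 IDs of each library, p = 0.5 for the first 50 and p = 0.9 for the first 200 (exact two-sided permutation tests, n = 3 pools per group), and 7 set sizes were compared in all (Benjamini-Hochberg adjusted p = 1 for each exact test).

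**Figure D1:**
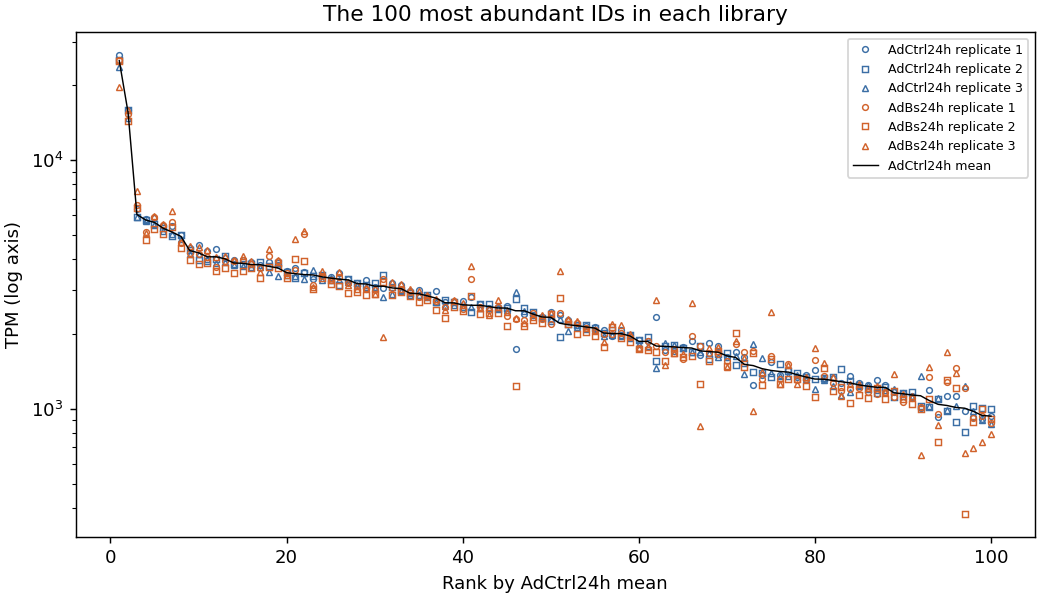
Level of each of the 100 members in each of the 6 libraries (TPM, log axis) against its rank by the AdCtrl24h mean, which the black line traces. Circles, squares and triangles are replicates 1, 2 and 3, blue for AdCtrl24h and orange for AdBs24h. The first 2 members stand above 10000 TPM, and the level then declines gradually to 936 TPM at rank 100.

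Within the set the control means spanned 26.9-fold, with a median of 2274 TPM. Only 2 members exceeded 10000 TPM, 5 lay between 5000 and 10000 TPM, 51 between 2000 and 5000 TPM and 42 under 2000 TPM. ADIR008488, the most abundant ID, was at 26476, 25254 and 23709 TPM in AdCtrl24h replicates 1, 2 and 3 and at 25424, 25042 and 19730 TPM in AdBs24h replicates 1, 2 and 3. It was at rank 1 in all 6 libraries and alone held 4.84% ± 0.209 of the listed total in AdCtrl24h and 4.57% ± 0.669 in AdBs24h (SD, n = 3 each). AdBs24h replicate 3 was lowest, while the 5 others lay close together and the groups overlapped.

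ADIR014656 was at 15862, 15961 and 14858 TPM in the AdCtrl24h pools and at 15309, 14406 and 15931 TPM in the AdBs24h pools. It was at rank 2 in all 6 libraries, 2.57 times above the next member by control mean, with overlapping groups. ADIR016057, at rank 3 in all 6 libraries, was at 6343, 5923 and 5904 TPM in AdCtrl24h and 6621, 6453 and 7502 TPM in AdBs24h. Here every AdBs24h pool lay above every AdCtrl24h pool, with AdBs24h replicate 3 highest (log2 difference 0.18, standard error 0.068, adjusted p = 0.401 from limma).

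The order of the members from rank 4 to rank 10 was less fixed. ADIR010609 was at 5796, 5759 and 5705 TPM in AdCtrl24h and at rank 4 by control mean, against 5159, 4796 and 5106 TPM in AdBs24h, where it was at rank 7. ADIR015610 was at 5835, 5533 and 5508 TPM in AdCtrl24h and 5924, 5312 and 5965 TPM in AdBs24h, and was at rank 5 by either mean. ADIR015958 was at rank 6 in all 6 libraries, with 5425, 5351 and 5207 TPM in AdCtrl24h and 5481, 5048 and 5527 TPM in AdBs24h. For these last 2 IDs the groups overlapped and the AdBs24h replicate 2 value was the lowest of the 6.

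ADIR015937 was at 5421, 4955 and 5055 TPM in AdCtrl24h and 5656, 5399.6 and 6255 TPM in AdBs24h, and moved from rank 7 to rank 4 by mean. ADIR001183 was at 4988, 5007 and 4835 TPM in AdCtrl24h and 4651, 4429.8 and 4683 TPM in AdBs24h, where each pool was below each control pool. ADIR014908 had 4434, 4374 and 4201 TPM in the controls, and 4245, 3983 and 4525 TPM after Bs. ADIR000405, at rank 10 by control mean, had 4551, 3988 and 4200.2 TPM in the controls, and 4197, 3820.4 and 4470.3 TPM after Bs. The groups overlapped for the last 2 and for ADIR015937. Of the IDs, 8 were among the first 10 of all 6 libraries and 13 among the first 10 of any library.

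Around the threshold the levels are nearly continuous, so membership there is a matter of small differences. The members at ranks 96 to 100 were ADIR010966, ADIR010798, ADIR011086, ADIR002703 and ADIR007275, with control means of 1014, 1007, 978, 941 and 936 TPM. The next 5 IDs outside the set were ADIR001840, ADIR004213, ADIR007695, ADIR003464 and ADIR002330, with control means of 909.7, 905, 869, 859.7 and 809 TPM. By AdBs24h mean, ADIR004213 and ADIR007695 were at ranks 96 and 98, inside the first 100, and ADIR003464 was at rank 155.

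Membership hardly depended on the library. Of the 100 members, 93 were among the first 100 of all 6 libraries, 95 among those of all 3 AdCtrl24h libraries and 94 among those of all 3 AdBs24h libraries. Members missing from a library's own first 100 numbered 2, 2 and 1 in AdCtrl24h replicates 1, 2 and 3 and 1, 2 and 4 in AdBs24h replicates 1, 2 and 3. Lists of the first 100 shared 97 IDs for each pair of AdCtrl24h libraries, 95 to 97 for pairs of AdBs24h libraries and 95 to 99 between groups. A set chosen on the AdBs24h means shared 97 IDs with the members.

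Since the AdCtrl24h libraries both chose and showed the members, the choice was repeated on each pair of AdCtrl24h libraries and read in the libraries left out. The control library left out kept 97 to 98 of the 100 IDs in its own first 100, and the AdBs24h libraries kept 96 to 99. The median shift in rank was 2 in the control library left out and 2.5 to 3.5 in AdBs24h libraries. Shifts of 10 ranks or more were seen for 3 to 7 IDs in a control library left out. For AdBs24h replicate 1 this number was 5 to 6, for replicate 2 it was 10 to 12, and for replicate 3 it was 18 to 24. By this count AdBs24h replicate 1 lay within the range of the controls and replicate 3 farthest out, while the median shift of AdBs24h replicate 1, 2.5 to 3, was above that of the controls. These values are counts over the same IDs, and no test was made of them.

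**Figure D2:**
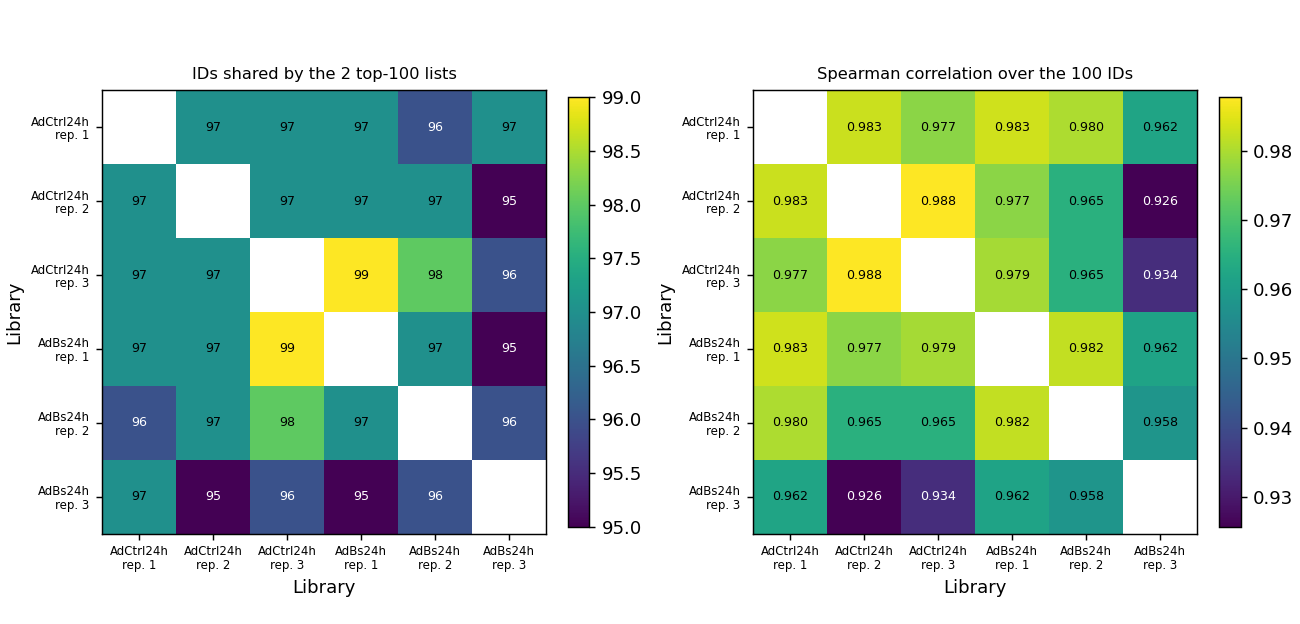
The number of IDs shared by the lists of the 100 most abundant IDs of each pair of libraries (left) and the Spearman correlation of TPM over the 100 members for each pair (right). Rows and columns are the 6 libraries. Shared IDs number 95 to 99, and the lowest correlations, 0.926 and 0.934, join AdBs24h replicate 3 with AdCtrl24h replicates 2 and 3.

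The order of levels inside the set was kept as well. Over the 100 members, Spearman's correlation of TPM was 0.977 to 0.988 between AdCtrl24h libraries, 0.958 to 0.982 between AdBs24h libraries and 0.926 to 0.983 between groups. These correlations run across IDs, which are not replicates and share each library's scaling. Of the 4950 pairs of members, 93.3% stood in the same order in all 3 AdCtrl24h libraries, 91.0% in all 3 AdBs24h libraries and 86.1% in all 6. In 61 pairs (1.23%) all AdCtrl24h libraries showed the opposite order to all AdBs24h libraries. The control means spanned 26.9-fold, so many pairs lay too far apart to change order easily. These percentages and the correlations depend on that range as well. Neighbours in the order were seldom resolved, since the AdCtrl24h pools overlapped for 89 of the 99 consecutive ranks. By mean level, 76 members lay within 5 ranks of their control rank in AdBs24h and 11 moved by more than 10.

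The largest climbs in rank by AdBs24h mean were those of ADIR000828, from 95 to 77, and ADIR010966, from 96 to 78. Both IDs had every AdBs24h pool above every AdCtrl24h pool. ADIR010966 was at 1128, 888 and 1027 TPM in AdCtrl24h and 1461, 1219 and 1400.4 TPM in AdBs24h. ADIR014598 dropped from rank 67 to 81, at 1645, 1789.5 and 1699.9 TPM in AdCtrl24h and 1789, 1259 and 858 TPM in AdBs24h. ADIR003860 dropped from 46 to 59, at 1743, 2766 and 2940.1 TPM in AdCtrl24h and 2298, 1240.5 and 2317 TPM in AdBs24h. For both of these the groups overlapped, and in each the drop of the mean came with 1 or 2 low AdBs24h pools beside at least 1 at the control level.

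Agreement between control pools was close for most members. The coefficient of variation (SD over mean of the 3 pools) had a median of 3.24% in AdCtrl24h, was under 5% for 67 members and reached 10% or more for 9. The most even member was ADIR009225, at 1779, 1762 and 1756 TPM in AdCtrl24h (0.672%), followed by ADIR006669 at 2333, 2332 and 2364 TPM (0.778%). The least even was ADIR015631, at 2341, 1563 and 1465 TPM (26.8%), with ADIR003860 next at 26.0%. In AdBs24h, ADIR015631 was at 1799, 1691 and 2732 TPM, so a single pool stood high in each group. The AdBs24h values of the even pair were 1589.97, 1619.7 and 1669 TPM for ADIR009225 and 2298, 2213 and 2392 TPM for ADIR006669.

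AdBs24h pools were less alike. Their coefficient of variation had a median of 5.15% over the members, was under 5% for 48 and 10% or more for 21, of which 7 also reached 10% in AdCtrl24h. It exceeded the AdCtrl24h value for 82 of the 100 members, against 63% of the IDs between ranks 100 and 200. The listed total was lowest in AdBs24h replicate 2, and that library was the lowest of the 6 for 60 members in TPM, and for 30 when each value was divided by the listed total of its library, beside 15.2% and 10.4% of the tested IDs. As shares of the listed total, the medians were 2.76% in AdCtrl24h and 4.19% in AdBs24h. On that scale 76% of the members spread more in AdBs24h, against 70% of the IDs between ranks 100 and 200. Over pairs of libraries the AdBs24h median in TPM was 3.31% without replicate 2, 6.52% without replicate 1 and 4.14% without replicate 3. The AdCtrl24h median over pairs was 2.52% to 3.59%, a range that holds the AdBs24h median without replicate 2. The members were all read in the same 6 libraries, so counts of members are not independent observations of the difference in spread.

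**Figure D3:**
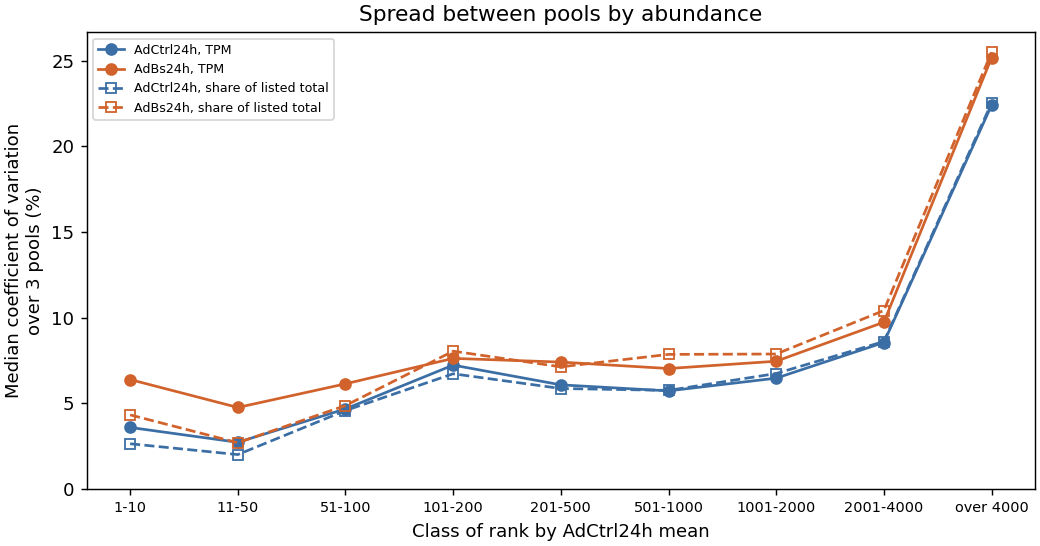
Median coefficient of variation over the 3 pools of a group (%) for classes of rank by AdCtrl24h mean, among tested single-row IDs. Filled circles are TPM and open squares are shares of the listed total, blue for AdCtrl24h and orange for AdBs24h. In AdCtrl24h the median is 3.58%, 2.71% and 4.66% at ranks 1 to 10, 11 to 50 and 51 to 100, and 7.22% past rank 100 up to rank 200.

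The spread did not fall steadily with abundance. In AdCtrl24h the median was 3.58% for the first 10 members, 2.71% at ranks 11 to 50 and 4.66% at ranks 51 to 100. It was 7.22% past rank 100 up to rank 200, 5.71% past rank 500 up to rank 1000 and 22.4% past rank 4000. Members with a wide spread in AdCtrl24h tended to have one in AdBs24h (Spearman's rho 0.653 across the 100 IDs, given as a description). The median standard error of the log2 difference was 0.057 for the members and 0.13 for all 6315 IDs tested. It was 0.085 past rank 100 up to rank 200, 0.080 past rank 500 up to rank 1000 and 0.24 past rank 4000. The comparison of the groups was thus more precise for the members, by a smaller margin against the ranks up to 1000 than against all tested IDs.

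Levels held in AdBs24h within narrow bounds for most members. The AdBs24h mean was within 10% of the AdCtrl24h mean for 75 of the 100. Log2 differences (AdBs24h minus AdCtrl24h) ran from -0.56 to 0.46 with a median of -0.04, beside a median of 0.0041 over all 6315 tested IDs. The middle 50% of the members lay between -0.10 and 0.02, and that of all tested IDs between -0.14 and 0.13. No member passed a log2 difference of 0.585, a 1.5-fold change, in either direction, against 9.20% of the tested IDs. The 95% interval from limma lay wholly inside ±0.585 for 86 members, against 59.1% of the tested IDs.

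At an adjusted p under 0.05 from limma 0 members were called, where 0.0950% of all tested IDs (6 of 6315) were. At an unadjusted p under 0.05 there were 16 members, 8 higher and 8 lower in AdBs24h, against 12.0% of the tested IDs. The lowest adjusted p of a member was 0.234 (limma). The groups did not overlap for 31 members. Of these, 9 were higher in AdBs24h, where 9.99% of all tested IDs were, and 22 were lower, where 9.42% of all tested IDs were. Because AdCtrl24h values chose the members, nothing is read from these counts alone. A set chosen on the AdBs24h means gave 9 higher and 21 lower. Past rank 200 up to rank 500 the lower share was 19% and the higher share 7%, whereas past rank 4000 they were 5.71% and 12.0%.

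This split, and the shares over all tested IDs beside it, changed with the scaling and with the libraries included. As shares of the listed total, 13 members were higher and 19 lower without overlap, beside 11.2% and 7.38% of the tested IDs. Leaving out AdBs24h replicate 2 gave 21 higher and 22 lower in TPM, beside 15% and 15.7% of the tested IDs, and leaving out AdBs24h replicate 3 gave 9 higher and 32 lower, beside 14.0% and 13.5%. The 9 higher members were 1.101 to 1.38 times above the controls by mean (median 1.33), and the 22 lower members were 1.03 to 1.17 times below (median 1.08).

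**Figure D4:**
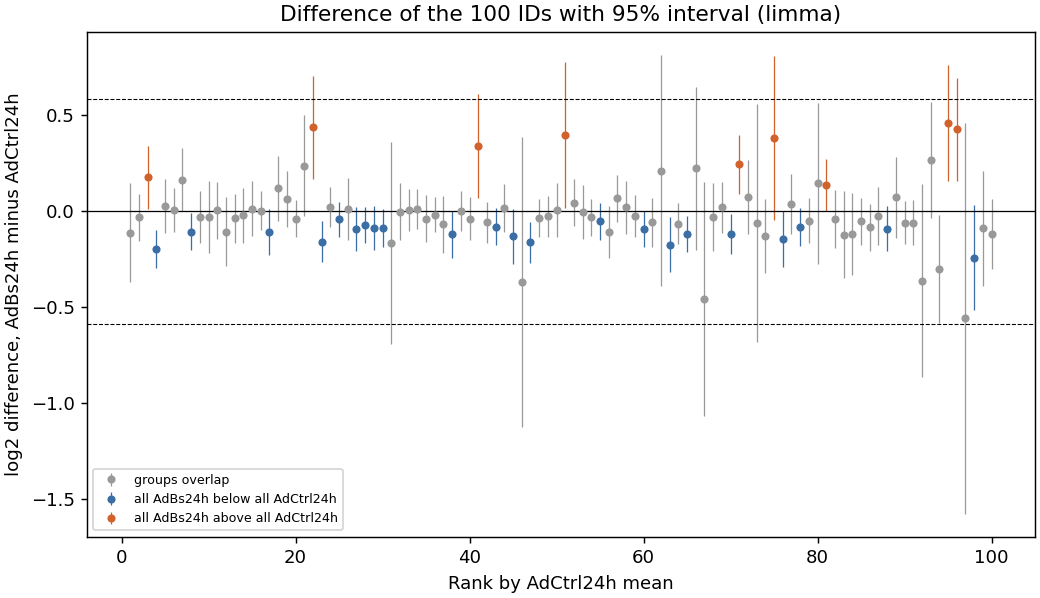
Log2 difference of each member (AdBs24h minus AdCtrl24h, log2(TPM + 1), limma) with its 95% interval, against its rank by the AdCtrl24h mean. Orange points had all AdBs24h pools above all AdCtrl24h pools (9 members), blue points all below (22 members), and grey points overlapped (69 members), with dashed lines at ±0.585. All points lie between the dashed lines.

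ADIR000828 had the largest difference among the members that were higher without overlap. It was at 1131, 977.6 and 989 TPM in AdCtrl24h and 1285, 1304 and 1697 TPM in AdBs24h, 1.38 times higher by mean. Its log2 difference was 0.46 (standard error 0.12, adjusted p = 0.289 from limma). ADIR015736 was at 3565, 3508 and 3337 TPM in AdCtrl24h and 5072, 3939 and 5178 TPM in AdBs24h, 1.36 times higher, and climbed from rank 22 to rank 8. Its log2 difference was 0.44 (standard error 0.11, adjusted p = 0.289 from limma), and AdBs24h replicate 2 was nearest to the controls.

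Among the members that were lower without overlap, ADIR011086 had the largest difference. It was at 924, 1027 and 983 TPM in AdCtrl24h and 917, 883 and 697 TPM in AdBs24h, so 2 of the AdBs24h pools lay just under the lowest control pool. Its log2 difference was -0.24 (standard error 0.11, adjusted p = 0.438 from limma), and -0.12 without AdBs24h replicate 3, where that of ADIR010609 was -0.21. ADIR010609, whose values are given above, followed with -0.20 (standard error 0.041, adjusted p = 0.234 from limma). Its control pools differed by at most 1.02-fold and all AdBs24h pools lay under them, with a mean of 5020.3 ± 196 TPM against 5753 ± 45.8 TPM (SD, n = 3 each). None of these 4 IDs passed the adjusted threshold under any alternative (adjusted p from limma between 0.0883 and 0.718).

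AdBs24h replicate 3 stood apart for the largest number of members. A library was taken to lie apart from the rest where its value was more than 25% above the median of the 5 other libraries or under 80% of it, a bound chosen after the values were seen. This held for 18 members in AdBs24h replicate 3, 10 above and 8 below. It held for 5 members in AdBs24h replicate 2, 3 in AdBs24h replicate 1 and 3, 2 and 5 in AdCtrl24h replicates 1, 2 and 3. Over all tested IDs above 0 in every library the share was 29.6% for AdBs24h replicate 3 and 20.5% to 25.6% for the others, so that replicate differed most there too. Divided by the listed total the members numbered 11 above and 8 below, so its position was nearly the same on that scale.

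**Figure D5:**
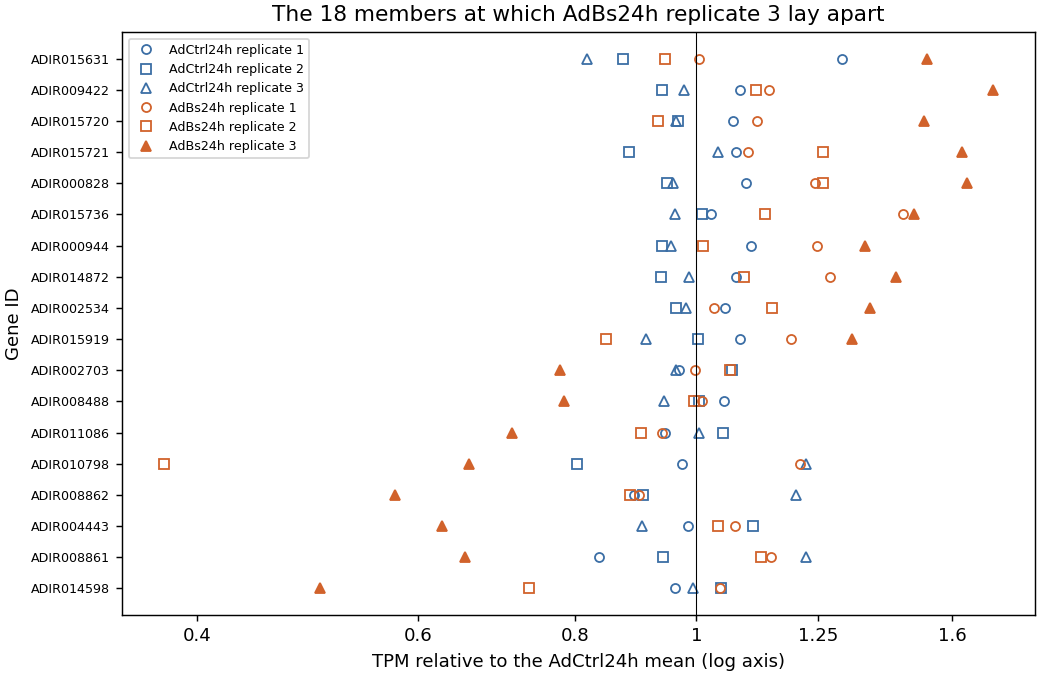
TPM relative to the AdCtrl24h mean (log axis) in the 6 libraries for the 18 members at which AdBs24h replicate 3 lay over 25% above or under 80% of the median of the others, ordered by that ratio. Filled triangles are AdBs24h replicate 3, open orange symbols the other AdBs24h pools and blue symbols AdCtrl24h. The filled triangle is the outermost point for all but ADIR010798, where AdBs24h replicate 2 was lowest.

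The members named next were singled out after their values were seen. ADIR009422 was at 1548, 1342 and 1396 TPM in AdCtrl24h and 1633, 1593 and 2464 TPM in AdBs24h. ADIR004443 was at 3067, 3461 and 2819.9 TPM in AdCtrl24h and 3347, 3243 and 1953 TPM in AdBs24h. In both, AdBs24h replicate 3 departed farthest, upwards for ADIR009422 and downwards for ADIR004443. For ADIR009422 the other AdBs24h pools also lay above every AdCtrl24h pool, by less. ADIR010798 had the widest spread of any member in AdBs24h, with 1218, 379 and 664 TPM (56.6%), while its controls had 981, 808.5 and 1231 TPM. Its rank was 88, 172 and 119 in the AdBs24h libraries.

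Of the members, 11 have successive identifier numbers, in 5 runs. The sources used here do not say what the order of the numbers stands for. ADIR008861 was at 1249, 1404 and 1828 TPM in AdCtrl24h and 1715, 1682 and 978 TPM in AdBs24h. ADIR008862 was at 1007, 1025 and 1358 TPM in AdCtrl24h and 1017, 999.8 and 650.2 TPM in AdBs24h. In both the highest library was AdCtrl24h replicate 3 and the lowest AdBs24h replicate 3.

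ADIR015720 was at 1881, 1700.1 and 1693 TPM in AdCtrl24h and 1966, 1639 and 2672 TPM in AdBs24h, and ADIR015721 at 2380.2, 1954 and 2303 TPM and 2432, 2792 and 3603 TPM. AdBs24h replicate 3 was highest for both, while AdBs24h replicate 2 was the lowest library for ADIR015720 and next to the highest for ADIR015721. The 3 remaining runs were ADIR000405 with ADIR000406, ADIR001181 with ADIR001182 and ADIR001183, and ADIR003059 with ADIR003060. Their ranks differed widely within the first 2 of these, at 10 and 39 and at 15, 76 and 8, and were 55 and 48 in the last.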

How the data were processed

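The authors used Fastp for trimming, HISAT2 (2.1.0 in the submitters' processing notes) for alignment, StringTie for assembly and RSEM to estimate abundance as TPM. The deposited table names no unit, so its values were read as TPM from those methods. No genome build is named in the sources used here. The study tabulates read numbers per library, but TPM keeps no counts per ID. The table held 13498 rows for 13250 IDs, 173 of them with several rows.

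Members were ranked among the 13077 IDs with a single row. For the comparison of groups, rows sharing an ID were added up, a mean of at least 1 TPM was required, and log2(TPM + 1) was fitted with limma 3.58.1 in R 4.3.3, with trend and robust moderation, no block and Benjamini-Hochberg adjustment over 6315 IDs. The fit was tested on simulated data. Alternatives were another scaling, pseudocount, filter, block and moderation, other choices and numbers of members, and each library left out. The methods call the 3 pools per group independent biological replicates, and no source used here says whether they were reared separately. The p-values therefore set a group difference against the spread between these pools only. Single values per library were compared by exact permutation tests. Planned gene lists by product name could not be counted without names.

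IDs named are those of ranks 1 to 10 and 96 to 105, and the 2 at each end in control spread, rank shift and non-overlapping difference. ADIR009422, ADIR004443, ADIR015737 and the IDs with successive numbers were named after their values were seen. Members and lists were chosen with earlier results of these data known. Alternatives added after the values were seen are shares of the listed total, further libraries left out, and the sets without the first ID.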

Additional observations from a re-analysis of the deposited data

How the results depend on the processing

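In the fit with all libraries 6 of the tested IDs and 0 members passed an adjusted p of 0.05 in limma. The tested IDs called numbered 3 with a pseudocount of 0.1, 0 with no filter on low values (917 at an unadjusted p under 0.05), 1 without trend and robust options and 0 with the replicate number as a block (617 at an unadjusted p under 0.05), and 0 to 5 without 1 library (0 without AdBs24h replicate 3 or AdCtrl24h replicate 2 or 3, 1 without AdBs24h replicate 2, 3 without AdCtrl24h replicate 1, and 478 to 847 at an unadjusted p under 0.05). Members called numbered 0 in all 17 alternatives. Members at an unadjusted p under 0.05 numbered 16 in the fit with all libraries, beside 755 of the 6315 tested IDs (12.0%). They numbered 9 with the replicate block, beside 617 tested IDs, and 7 without trend and robust options, beside 728. Without 1 library they numbered 7 to 19, beside 478 to 847 (7 and 8 without AdCtrl24h replicates 2 and 3, beside 478 and 526). As shares of the listed total they numbered 24, beside 741. In the fit with all libraries there were 8 among the first 50 and 34 among the first 200, beside the same 12.0%. Residuals of libraries with the same replicate number correlated at -0.078, 0.088 and -0.024 over the tested IDs. These values show no pairing by number, but with 3 libraries per group they cannot exclude one. The median log2 difference of the members was -0.05 to -0.01 over 17 alternatives. The members' share of the listed total was 54.1% to 55.0% in AdCtrl24h and 54.4% to 55.3% in AdBs24h over 10 alternatives each. It was 28.3% and 28.1% of 1000000, and 49.6% and 50.2% without ADIR008488. The median coefficient of variation was 2.52% to 3.59% in AdCtrl24h and 3.31% to 6.52% in AdBs24h without 1 library. Spearman's median between groups was 0.965, 0.939 over the first 50 members. Members whose groups did not overlap, 31 in all, were 33 to 43 without 1 library (beside 12.8% to 17.96% of the tested IDs higher and 13.2% to 15.7% lower) and 34 to 47 as shares without 1 library (beside 14.2% to 22.5% higher and 10.1% to 15.6% lower), with fewer libraries to overlap. The causes of the other changes were not tested, and TPM gives no depth behind single values.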

Other observations

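Besides the members, 8 IDs entered the first 100 of at least 1 library. The widest range among them was that of ADIR015737, the number after the member ADIR015736. It was at 333, 335 and 845 TPM in AdCtrl24h and 1463, 25.02 and 42.6 TPM in AdBs24h, where it ranked 77, 2042 and 1283. Its group means were 504 and 510.3 TPM, so the means hide a difference between pools that no member came near.

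ADIR003464, at rank 104 just outside the set, was at 712, 1004 and 863 TPM in AdCtrl24h and 558, 347 and 447 TPM in AdBs24h. All AdBs24h pools lay below all AdCtrl24h pools, 1.91 times by mean (log2 difference -0.94, standard error 0.20, adjusted p = 0.234 from limma), a larger difference than for any of the 100 members.

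When rows of the same ID were summed, 2 IDs with several rows entered the first 100 and 98 members remained.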
